A study of Mus musculus with 9 samples.

Results

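The TGF-beta family genes described here are 10 of the 20618 genes in the deposited RNA-seq tables: the ligand Tgfb1, the type I receptors Acvrl1, Acvr1 and Tgfbr1, the type II receptors Tgfbr2 and Bmpr2, the co-receptor Tgfbr3, and the signalling proteins Smad3, Smad7 and Skil. They were picked by gene symbol, and all 10 were found. Acvrl1 heads the list because its low level with hypoxanthine was already known from these libraries. Differences between the medium with hypoxanthine and either other medium are therefore given for these 10 genes as descriptions, with no test, while the comparison of inosine with glucose is tested.

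The cells were wild-type mouse CD8+ T cells, labelled as primary cells, kept for 24 h in 1 of 3 media and then sorted for live cells. There were 3 libraries in 2 mM inosine combined with hypoxanthine, 3 in 2 mM inosine and 3 in 2 mM glucose, and each medium held 10% dialyzed fetal bovine serum. The unit of the hypoxanthine dose is not clear in the labels, and how the cells were obtained and activated is not given in the sources used here. Every library carries the same batch label. The labels give neither the number of animals nor separate cultures, so a p-value here reflects only how far these libraries scatter, and that scatter may be technical. Values are FPKM, fragments scaled to gene length and to the size of the library by the authors, which allows levels of different genes to be set side by side.

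TGF-beta family ligands bring a pair of type II receptors and a pair of type I receptors together at the cell surface. The type II receptor phosphorylates the type I receptor, which phosphorylates receptor-activated SMAD proteins, and these enter the nucleus with SMAD4. TGFBR1 acts mainly through SMAD2 and SMAD3, whereas ACVRL1 (also called ALK1), ACVR1 and the BMP receptors act mainly through SMAD1 and SMAD5. In CD8+ T cells TGF-beta is best known for restraining cytotoxic differentiation and for favouring tissue residence. ACVRL1 is best known from the endothelium of blood vessels.

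Whole reads recovered from the deposited group means gave 30578332 to 49644460 reads per library, with 16245 to 17217 genes above 0. Reads from mitochondrially encoded genes took the largest shares of FPKM in replicate 2 with hypoxanthine (5.84%) and replicate 2 in inosine (6.50%), against 4.03% to 4.82% in the other libraries. Within their media, these libraries were the lowest of the 3 for 9 of the 10 genes with hypoxanthine and for 7 of the 10 in inosine, and in glucose replicate 1 was the lowest for 7. The part of the mitochondrial share in the results was not tested, and values without both replicate 2 libraries are given below. The summed level of 7 CD8 T cell markers (Cd3d, Cd3e, Cd3g, Cd8a, Cd8b1, Cd2 and Lck) was 1317 to 1395 FPKM with hypoxanthine, 815 to 1041 FPKM in inosine and 884 to 953 FPKM in glucose. Not every marker went that way: Lck was at 169 to 181 FPKM with hypoxanthine, 193 to 223 FPKM in inosine and 200.1 to 219.5 FPKM in glucose, and Cd2 at 84.8 to 86.3 FPKM with hypoxanthine, 78.6 to 108.7 FPKM in inosine and 88.7 to 96.4 FPKM in glucose. The summed level of 4 NK cell markers, nearly all of it Gzma, which cytotoxic T cells also express, was 135 to 162 FPKM with hypoxanthine, 406 to 461 FPKM in inosine and 328 to 492 FPKM in glucose. The sum of 5 measured myeloid markers of 7, mostly Cd14, was 0.108 to 0.144 FPKM with hypoxanthine, 0.397 to 0.577 FPKM in inosine and 0.240 to 0.465 FPKM in glucose. The 4 markers of CD4 and regulatory T cells summed to 4.81 to 7.36 FPKM over all libraries, most of it Zbtb7b. Ikzf2 of that list was at 0.955 to 1.40 FPKM with hypoxanthine, above the 0.502 to 0.760 FPKM in inosine and the 0.486 to 0.609 FPKM in glucose. The 5 B cell markers summed to 1.32 to 1.84 FPKM over all libraries, most of it Cd79b at 1.07 to 1.70 FPKM, with Cd79a at 0.099 to 0.290 FPKM. Klrb1c of the NK cell list was at 0.076 to 0.199 FPKM. Cd4, Foxp3, Lyz2 and Ncr1 stayed at or under 0.056 FPKM in every library. The part of these markers in the results was not tested. In such bulk samples, fewer cells of a type and less RNA per cell cannot be told apart.

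The ligand Tgfb1 was the most abundant of the 10 genes in each medium. It encodes TGF-beta 1, the main TGF-beta of lymphocytes. Its level was 118, 83.8 and 106 FPKM with hypoxanthine, against 109, 67.2 and 106 FPKM in inosine and 119.7, 112 and 98.3 FPKM in glucose. The 3 media overlapped, with means of 102 ± 17.2 FPKM with hypoxanthine, 94.2 ± 23.5 FPKM in inosine and 110.2 ± 10.9 FPKM in glucose (SD, n = 3 each). On the scale of log2(FPKM + 1), which the fit used throughout, the difference with hypoxanthine was 0.14 ± 0.20 from inosine and -0.11 ± 0.20 from glucose (± standard error).

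Acvrl1 stood apart from the other 9 genes. This type I receptor was at 0.397, 0.368 and 0.367 FPKM with hypoxanthine, against 10.5, 6.66 and 8.51 FPKM in inosine and 10.0, 8.22 and 8.32 FPKM in glucose. Every library with hypoxanthine lay far below every other library. The same gene had 85, 80 and 63 recovered reads with hypoxanthine, against 1776, 1356 and 1519 in inosine and 1491, 1372 and 2005 in glucose, so its low level there still rested on 63 or more reads per library.

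The mean of Acvrl1 was 0.377 ± 0.017 FPKM with hypoxanthine, 8.54 ± 1.90 FPKM in inosine and 8.85 ± 1.01 FPKM in glucose (SD, n = 3 each). These means were 22.6 times lower with hypoxanthine than in inosine and 23.5 times lower than in glucose. The fitted log2 difference was -2.77 ± 0.14 from inosine and -2.83 ± 0.14 from glucose, and because 1 is added to each FPKM it understates the change of a gene that lies below 1 FPKM. In the authors' deposited table the log2 fold change of Acvrl1 is 4.52 for inosine over hypoxanthine, a direction opposite to that used here, on group mean read counts of 71.4 with hypoxanthine and 1637 in inosine. Among the 9947 genes averaging 1 FPKM or more over the 9 libraries, 5 had a lower ratio of hypoxanthine to inosine than Acvrl1. Of these 9947 genes, 11, Acvrl1 among them, were more than 10 times lower with hypoxanthine. Acvrl1 meets this filter only through its levels in inosine and glucose. The rank rests on the values for which Acvrl1 was listed, so it is a description only.

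Without both replicate 2 libraries of high mitochondrial share, the log2 difference of Acvrl1 from inosine was -2.92. Leaving out any single library gave -2.92 to -2.63.

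**Figure D1:**
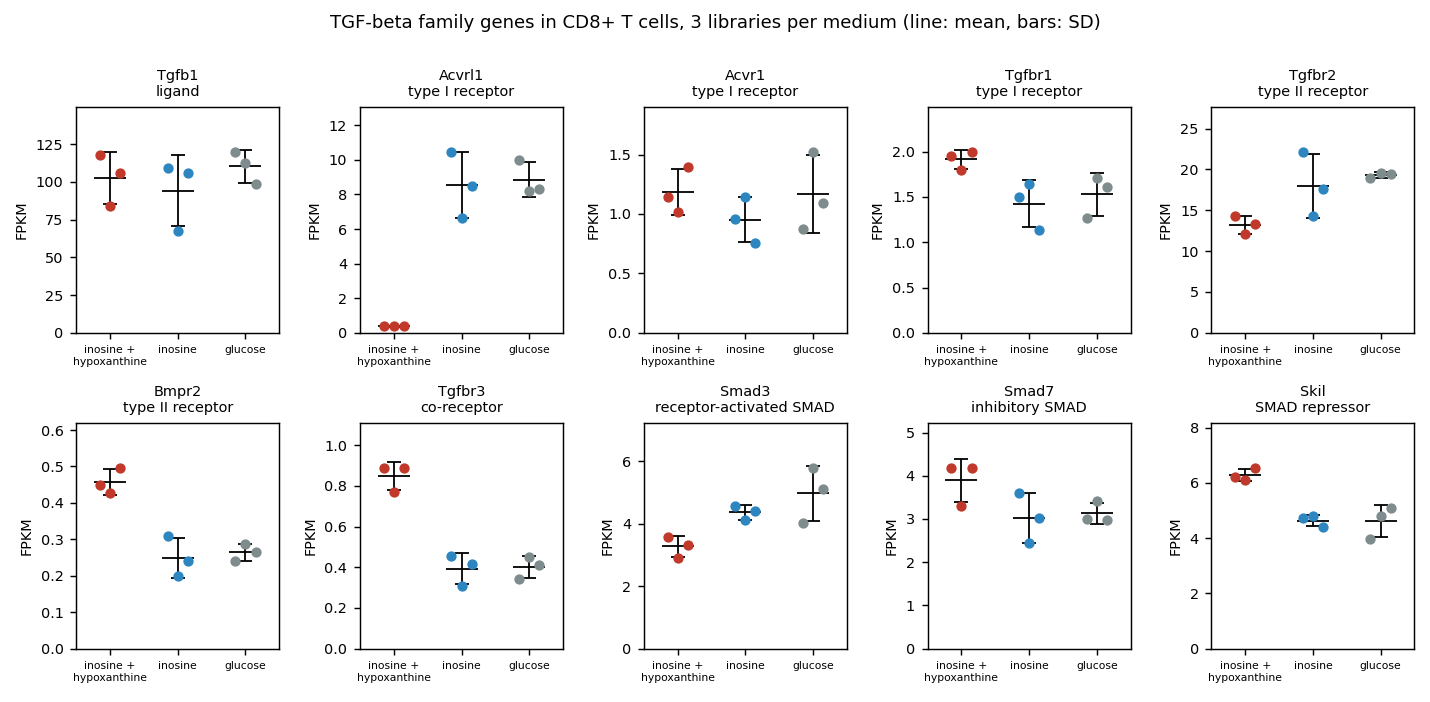
FPKM of each of the 10 genes (vertical axis, starting at 0) in the 3 media (horizontal axis), with 1 point per library, a line at the mean and bars of 1 SD. Acvrl1 lies near 0.38 FPKM in the 3 libraries with hypoxanthine and between 6.66 and 10.5 FPKM in the other 6, while Tgfb1 overlaps in all media.

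Acvrl1 lies on chromosome 15 (chr15:101128522-101145336 in GRCm38.p6, the assembly also called mm10, plus strand). Acvr1b, the activin type I receptor gene, lies 28736 bases away on the same strand. Acvr1b was at 2.61 ± 0.25 FPKM with hypoxanthine and 2.36 ± 0.57 FPKM in inosine (SD, n = 3 each), a log2 difference of 0.12 ± 0.12 that did not pass the test (limma, Benjamini-Hochberg adjusted p = 0.55). Within 100 kb of Acvrl1 there were 5 further measured genes, Ankrd33, Fignl2, Scn8a, A330009N23Rik and Grasp, chosen by position. None of these passed the test either, with adjusted p-values of 0.54 to 1, and Ankrd33, Fignl2 and Scn8a were at or under 0.024 FPKM in every library.

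Kdr, Tek and Vwf, the defining endothelial genes of the list that were measured, were at or under 0.013, 0.0047 and 0.0020 FPKM in every library. Pecam1, which T cells also express, ran from 2.74 to 4.52 FPKM over the 9 libraries. The summed level of the 4 measured endothelial genes of 7 was 3.96 to 4.53 FPKM with hypoxanthine, 2.91 to 3.66 FPKM in inosine and 2.74 to 3.41 FPKM in glucose, nearly all of it Pecam1. Summed levels of 5 measured fibroblast markers of 6 stayed at or under 0.091 FPKM, and those of 5 platelet markers at 0.407 to 0.742 FPKM.

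The other type I receptors of the list were low in every medium. Acvr1, a BMP and activin receptor also known as ALK2, was at 1.14, 1.02 and 1.39 FPKM with hypoxanthine, against 0.954, 1.14 and 0.759 FPKM in inosine and 0.878, 1.52 and 1.10 FPKM in glucose. Its media overlapped, with a log2 difference of 0.16 ± 0.12 from inosine and 0.02 ± 0.12 from glucose.

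Tgfbr1, the type I receptor of TGF-beta itself, was at 1.95, 1.79 and 2.00 FPKM with hypoxanthine, against 1.499, 1.64 and 1.13 FPKM in inosine and 1.26, 1.71 and 1.61 FPKM in glucose. Its 3 libraries with hypoxanthine lay above the other 6. The gap was small, since the lowest library with hypoxanthine was at 1.79 FPKM and the highest in glucose at 1.71 FPKM. The log2 difference was 0.27 ± 0.10 from inosine and 0.21 ± 0.10 from glucose.

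Acvrl1 was the largest part of the type I receptor FPKM in inosine and in glucose, and with hypoxanthine only Acvr1c was lower. Over 6 measured type I receptor genes (Acvrl1, Acvr1, Bmpr1a, Acvr1b, Tgfbr1 and Acvr1c), Acvrl1 made up 4.96 ± 0.23% with hypoxanthine, against 57.6 ± 3.9% in inosine and 56.4 ± 5.0% in glucose (SD, n = 3 each). The sum of the 6 genes was 7.19 to 7.84 FPKM with hypoxanthine, 12.6 to 17.5 FPKM in inosine and 15.3 to 16.2 FPKM in glucose. Without Acvrl1 the sums overlapped, at 6.82 to 7.45 FPKM with hypoxanthine, 5.73 to 7.02 FPKM in inosine and 6.14 to 7.40 FPKM in glucose. Acvr1b held the largest share with hypoxanthine (34.3 ± 2.4%), followed by Tgfbr1 (25.2 ± 0.4%), Bmpr1a (20.0 ± 1.8%) and Acvr1 (15.5 ± 2.0%).

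**Figure D2:**
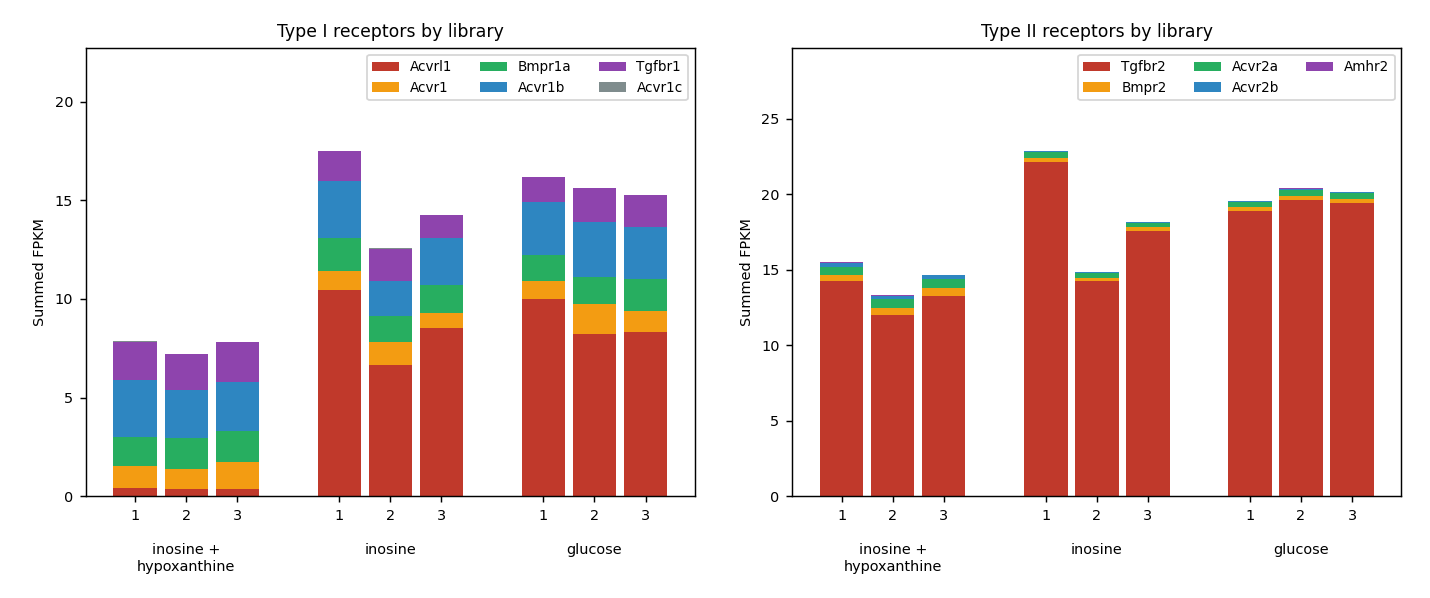
Summed FPKM (vertical axis) of the type I receptor genes (left) and the type II receptor genes (right) in each library, with 1 bar per library, numbered by replicate within each medium, and 1 colour per gene. The Acvrl1 segment is 0.367 to 0.397 FPKM high with hypoxanthine and 6.66 to 10.5 FPKM in the other media, and Tgfbr2 makes up over 90.3% of the type II sum in every library.

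The type II receptors Tgfbr2 and Bmpr2 differed in opposite directions with hypoxanthine. Their promoters are shown because these 2 genes of 1 class went opposite ways and because both have an entry among the RefSeq promoters. They run from 250 bases before to 50 bases after the annotated start, 5′ to 3′ on the gene's own strand. Capitals mark CAGAC or its reverse complement GTCTG, the SMAD box that SMAD3 and SMAD4 can bind, and GGCGCC, which is its own reverse complement and is a core of GC-rich elements bound by BMP-activated SMADs. The Tgfbr2 window is chr9:116175314-116175613 on the minus strand and the Bmpr2 window is chr1:59764029-59764328 on the plus strand, both in GRCm38.p6.
Tgfbr2: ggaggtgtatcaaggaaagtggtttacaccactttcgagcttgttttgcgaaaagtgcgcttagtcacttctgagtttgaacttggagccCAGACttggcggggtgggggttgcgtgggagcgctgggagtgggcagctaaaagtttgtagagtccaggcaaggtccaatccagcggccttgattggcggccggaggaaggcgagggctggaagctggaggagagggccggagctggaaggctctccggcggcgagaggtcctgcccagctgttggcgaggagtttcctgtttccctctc
Bmpr2: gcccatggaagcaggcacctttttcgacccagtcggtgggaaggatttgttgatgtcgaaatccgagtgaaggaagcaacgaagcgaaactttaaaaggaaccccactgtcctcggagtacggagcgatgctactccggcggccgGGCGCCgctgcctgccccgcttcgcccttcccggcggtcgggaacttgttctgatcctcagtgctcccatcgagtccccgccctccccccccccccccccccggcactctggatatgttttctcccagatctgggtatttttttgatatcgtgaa
The Tgfbr2 window holds 1 SMAD box, at position -160 from the start, and no GGCGCC. The Bmpr2 window holds 1 GGCGCC, at position -105, and no SMAD box. Promoter entries were matched for 6 of the 10 genes, with 7 windows in all since Tgfbr1 has a pair. No entry was matched for Acvrl1, Tgfbr3, Smad7 or Skil, so the counts below do not cover them. A SMAD box stood in 2 of these 7 windows, against 49.6% of all 32851 mouse promoter windows, and GGCGCC in 2 of 7, against 11.9%. Tgfbr1, whose libraries with hypoxanthine lay above the others, held GGCGCC at -233 in 1 window and a SMAD box at -203 in the other, which lies inside the gene. Smad3, whose libraries lay below, held neither, and nor did Acvr1 and Tgfb1. Windows were not matched for GC content, which was 52% to 83.7% in the 7, against a median of 52.7% over all promoters. The E-box CACGTG stood in 0 of 7, against 7.15%, and in the member windows no bases were shared between a SMAD box and GGCGCC. These matches describe letters only.

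Tgfbr2, which binds TGF-beta and starts signalling, was the most abundant of the measured type I and type II receptors in each medium. It was at 14.2, 12.03 and 13.3 FPKM with hypoxanthine, against 22.1, 14.3 and 17.6 FPKM in inosine and 18.9, 19.6 and 19.4 FPKM in glucose. All 3 libraries with hypoxanthine lay below the others, although the highest of them, at 14.2 FPKM, nearly met replicate 2 in inosine at 14.3 FPKM. Its log2 difference was -0.40 ± 0.13 from inosine and -0.52 ± 0.13 from glucose, and over the libraries left out in turn the value from inosine ran from -0.55 to -0.25.

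Bmpr2, the type II receptor of BMPs that also pairs with ACVRL1, was at 0.448, 0.426 and 0.496 FPKM with hypoxanthine, against 0.309, 0.200 and 0.240 FPKM in inosine and 0.240, 0.288 and 0.266 FPKM in glucose. Its 3 libraries with hypoxanthine lay above the other 6. The mean FPKM was 1.83 times that in inosine and 1.73 times that in glucose, and the log2 difference was 0.22 ± 0.05 from inosine and 0.20 ± 0.05 from glucose. Recovered reads of Bmpr2 numbered 294, 286 and 259 with hypoxanthine, against 164, 128 and 135 in inosine and 112, 149 and 200 in glucose.

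Within the type II class, Tgfbr2 took 90.9 ± 0.8% of the summed FPKM with hypoxanthine, against 96.5 ± 0.5% in inosine and 96.4 ± 0.2% in glucose. The share of Bmpr2 was 3.15 ± 0.25% with hypoxanthine, 1.34 ± 0.02% in inosine and 1.32 ± 0.09% in glucose (SD, n = 3 each). The shares of neither gene overlapped between hypoxanthine and the other media.

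Tgfbr3, known as betaglycan, presents ligand to TGFBR2. It was at 0.888, 0.769 and 0.889 FPKM with hypoxanthine, against 0.455, 0.306 and 0.414 FPKM in inosine and 0.340, 0.449 and 0.411 FPKM in glucose. The lowest library with hypoxanthine lay well above the highest of the other 6. The mean was 2.17 times that in inosine and 2.12 times that in glucose, and the log2 difference was 0.41 ± 0.06 from inosine and 0.40 ± 0.06 from glucose. Its recovered reads were 315, 280 and 253 with hypoxanthine, against 131, 105 and 125 in inosine and 85, 126 and 167 in glucose.

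Smad3, the receptor-activated SMAD downstream of TGFBR1, was at 3.58, 2.91 and 3.32 FPKM with hypoxanthine, against 4.56, 4.11 and 4.41 FPKM in inosine and 4.03, 5.78 and 5.09 FPKM in glucose. The libraries with hypoxanthine lay below all others. The mean FPKM with hypoxanthine was 0.750 times that in inosine and 0.658 times that in glucose, and the log2 difference was -0.33 ± 0.11 from inosine and -0.48 ± 0.11 from glucose.

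Smad7, the inhibitory SMAD that SMAD3 itself induces and that blocks type I receptors, was at 4.18, 3.31 and 4.19 FPKM with hypoxanthine, against 3.61, 2.45 and 3.03 FPKM in inosine and 3.00, 3.41 and 2.99 FPKM in glucose. Replicate 2 with hypoxanthine lay among the libraries of the other media. The log2 difference was 0.28 ± 0.12 from inosine, or 0.18 without replicate 2 in inosine, and 0.24 ± 0.12 from glucose.

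Skil, which encodes the SMAD repressor SnoN, was at 6.21, 6.10 and 6.55 FPKM with hypoxanthine, against 4.71, 4.79 and 4.40 FPKM in inosine and 3.96, 4.82 and 5.08 FPKM in glucose. The libraries with hypoxanthine lay above all others. The mean was 35.6% above that in inosine and 36.0% above that in glucose, with a log2 difference of 0.37 ± 0.08 from inosine and 0.38 ± 0.08 from glucose.

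Over the 10 genes, the libraries with hypoxanthine did not overlap those in inosine for 7 (Acvrl1, Tgfbr1, Tgfbr2, Bmpr2, Tgfbr3, Smad3 and Skil), against 34.4% of all genes. The same 7 did not overlap between hypoxanthine and glucose, against 37.6% of all genes, a comparison that shares the libraries with hypoxanthine. These shares are not matched for level, since 8 of the 10 genes averaged 1 FPKM or more, beside 9947 of all 20618 genes. Acvrl1 was listed for its low level with hypoxanthine, so its place among the 7 was known beforehand. In both comparisons Acvrl1, Tgfbr2 and Smad3 were lower with hypoxanthine, and Tgfbr1, Bmpr2, Tgfbr3 and Skil were higher. The median log2 difference of the 10 was 0.19 from inosine and 0.11 from glucose, against 0.0016 and 0.0012 over all genes. Over all genes averaging 1 FPKM or more, the medians were 0.019 and -0.0019. Without both replicate 2 libraries of high mitochondrial share, the values from inosine were -0.49 for Tgfbr2, -0.30 for Smad3, 0.37 for Tgfbr1, 0.21 for Bmpr2, 0.40 for Tgfbr3 and 0.41 for Skil, with the same signs as with all libraries.

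**Figure D3:**
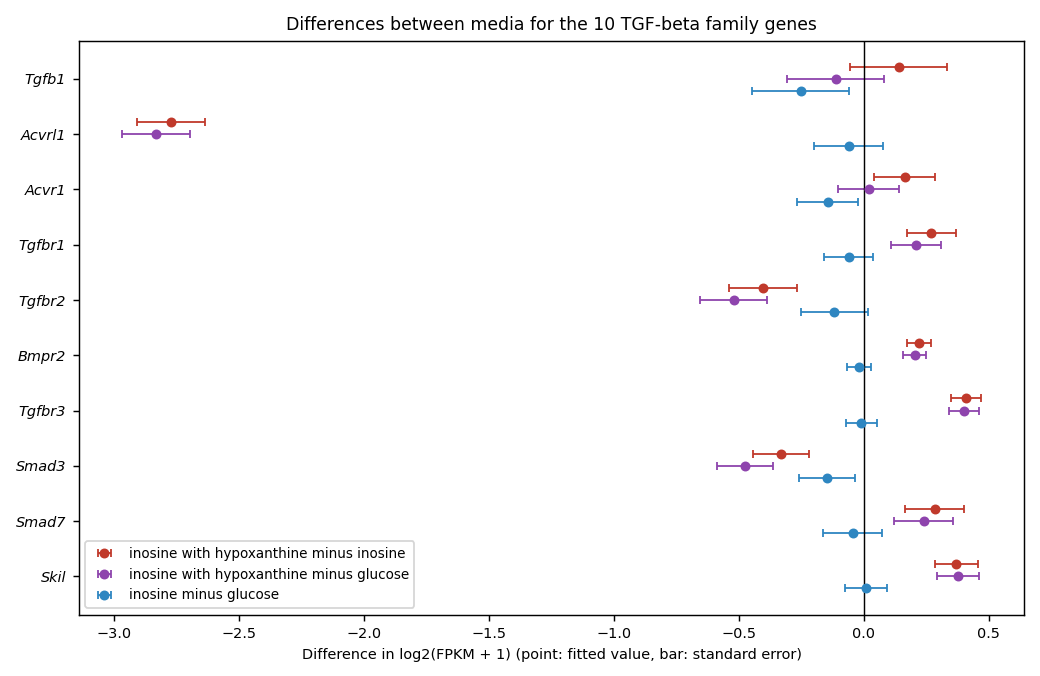
Differences in log2(FPKM + 1) between media (horizontal axis) for the 10 genes (vertical axis), with 1 colour per comparison, points for fitted values and bars of 1 standard error. Acvrl1 lies at -2.77 and -2.83 in the comparisons with hypoxanthine, and the inosine minus glucose points lie between -0.25 and 0.01.

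The order of the 10 genes by level changed mainly through Acvrl1. In glucose the means ran from Tgfb1 (110.2 FPKM) through Tgfbr2 (19.3), Acvrl1 (8.85), Smad3 (4.97), Skil (4.62), Smad7 (3.13), Tgfbr1 (1.53), Acvr1 (1.17) and Tgfbr3 (0.400) to Bmpr2 (0.265). Smad3 and Skil overlapped there, as did Tgfbr1 and Acvr1. In inosine Skil (4.63 FPKM) stood above Smad3 (4.36 FPKM) with overlapping libraries, and the order was otherwise as in glucose. Libraries of Tgfbr1 and Acvr1 overlapped in inosine too, and so did those of Tgfbr3 and Bmpr2. With hypoxanthine Acvrl1 was the lowest of the 10, under Bmpr2 (0.457 FPKM), and the libraries of these neighbours did not overlap. Smad7 (3.89 FPKM) and Smad3 (3.27 FPKM) overlapped with hypoxanthine.

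Inosine in place of glucose left the 10 genes at levels that the test did not separate. In the fit across all genes, 2 of 20618 genes (0.0097%) passed an adjusted p under 0.05 for inosine against glucose, the predicted genes Gm38782 and Gm41667, named here after their values were seen. None of the 10 genes passed, the smallest adjusted p was 1 and the smallest unadjusted p was 0.23 (limma), and limma's voom on recovered reads called 0 genes. Their log2 differences ran from -0.25 ± 0.20 for Tgfb1 to 0.01 ± 0.08 for Skil. The 95% intervals of the 10 differences together spanned -0.70 to 0.25. For Acvrl1, at 8.54 ± 1.90 FPKM in inosine and 8.85 ± 1.01 FPKM in glucose, the interval was -0.37 to 0.25, and the sign turned to 0.09 without replicate 2 in inosine and 0.02 without replicate 1 in glucose.

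By contrast, 4382 genes (21.3%) passed the test between hypoxanthine and inosine, 2404 of them higher (11.7%) and 1978 lower (9.59%) with hypoxanthine. Between hypoxanthine and glucose 4192 genes (20.3%) passed, 2224 higher (10.8%) and 1968 lower (9.55%). Without replicate 3 with hypoxanthine these counts were 2757 and 2677. They are the background for the other genes of the pathway, listed by role, of which 88 of 110 were measured and the rest were not analysed here. Of the 88, 17 were higher and 12 lower with hypoxanthine than in inosine, and 14 were higher and 11 lower than in glucose. Without replicate 1 with hypoxanthine, replicate 3 with hypoxanthine or replicate 3 in inosine, 19, 18 and 19 of the 88 passed against inosine in place of 29. Among genes averaging 1 FPKM or more, 22 of 50 pathway genes passed against inosine, beside 32.9% of all such genes. Between inosine and glucose 0 of the 88 passed in limma and 0 with voom, and 1 had an unadjusted p under 0.05.

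Of 14 measured genes listed as ligands other than Tgfb1, 2 rose with hypoxanthine against inosine and none fell. Inha, the inhibin alpha subunit, was at 0.735 ± 0.107 FPKM with hypoxanthine and 0.339 ± 0.056 FPKM in inosine (adjusted p = 0.0083, or 0.053 without both replicate 2 libraries of high mitochondrial share). Bmp1 was at 0.341 ± 0.036 FPKM with hypoxanthine and 0.077 ± 0.009 FPKM in inosine (adjusted p = 0.00026). Bmp1 encodes a protease that processes procollagen, in spite of its name, so of the 2 that rose only Inha encodes a ligand subunit. Gdf11, a ligand close to myostatin, was at 1.379 ± 0.064 FPKM with hypoxanthine and 1.47 ± 0.22 FPKM in inosine (adjusted p = 0.73). The median log2 difference of the list was 0.0012. Only 1 of the 14 genes averaged 1 FPKM or more, and with 1 added to FPKM the differences of genes near 0 FPKM stay near 0.

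Of the other type I receptors, 0 of 3 measured passed in limma against inosine, and 0 had an unadjusted p under 0.05. Bmpr1a, a BMP receptor, was at 1.52 ± 0.06 FPKM with hypoxanthine and 1.47 ± 0.17 FPKM in inosine (adjusted p = 0.82). All 3 other type II receptors rose against inosine, with a median log2 difference of 0.25. The activin receptor Acvr2a was at 0.574 ± 0.062 FPKM with hypoxanthine and 0.323 ± 0.030 FPKM in inosine (adjusted p = 0.0070), and Acvr2b was at 0.268 ± 0.035 FPKM with hypoxanthine and 0.062 ± 0.015 FPKM in inosine (adjusted p = 0.00068). Amhr2, the receptor of anti-Müllerian hormone, named after its values were seen, averaged 0.024 FPKM with hypoxanthine and was listed at 0 in the 3 inosine libraries (adjusted p = 0.024). Its call was lost in 7 of the alternatives tried, among them each inosine library and replicates 1 and 2 with hypoxanthine left out, with an adjusted p of up to 0.13.

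Of 7 other measured genes listed as co-receptors or decoy receptor, 3 fell with hypoxanthine and none rose, against inosine and against glucose. Of these 3, only Eng encodes a co-receptor, and Lrrc32 and Nrros encode proteins that hold latent TGF-beta. Lrrc32, which encodes GARP and holds latent TGF-beta on the cell surface, was at 9.03 ± 0.54 FPKM with hypoxanthine and 12.03 ± 0.76 FPKM in inosine (adjusted p = 0.013, or 0.0504 without replicate 3 in inosine). Nrros, a related protein that holds latent TGF-beta on myeloid cells, was at 16.7 ± 0.7 FPKM with hypoxanthine and 22.5 ± 1.4 FPKM in inosine (adjusted p = 0.0064). Eng, named after its values were seen because endoglin is the co-receptor of ACVRL1, was at 2.05 ± 0.30 FPKM with hypoxanthine and 2.89 ± 0.41 FPKM in inosine (adjusted p = 0.039). Its call against inosine was lost in 8 alternatives, with each library with hypoxanthine, replicates 1 and 3 in inosine or replicates 1 and 3 in glucose left out and in the fit of these media alone, at an adjusted p of up to 0.13.

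Among 11 measured genes of latent TGF-beta binding and activation, 1 rose and 1 fell against inosine, with a median log2 difference of 0.0079. Only 3 of the 11 averaged 1 FPKM or more, so this median too is held near 0 by low levels. Ltbp3, a latent TGF-beta binding protein, was at 0.665 ± 0.098 FPKM with hypoxanthine and 0.333 ± 0.067 FPKM in inosine (adjusted p = 0.015, and up to 0.062 without replicate 1 or 3 with hypoxanthine). Furin, the protease that cleaves the TGF-beta precursor, was at 8.03 ± 1.21 FPKM with hypoxanthine and 11.9 ± 2.1 FPKM in inosine (adjusted p = 0.029). The call of Furin was lost without replicate 2 or 3 with hypoxanthine, without replicate 1 or 3 in inosine and in the fit of these media alone, at up to 0.10. The integrin gene Itgav was at 5.26 ± 0.31 FPKM with hypoxanthine and 5.58 ± 1.17 FPKM in inosine (adjusted p = 0.79).

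Smad1 and Smad5, of the BMP branch, rose, and Smad2 and Smad4 did not pass. Of 4 measured SMADs other than Smad3 and Smad7, 2 rose against inosine, with a median log2 difference of 0.29. Smad1 was at 2.55 ± 0.27 FPKM with hypoxanthine and 1.74 ± 0.13 FPKM in inosine (adjusted p = 0.015, and up to 0.065 without replicate 1 or 3 with hypoxanthine). Smad5 was at 2.64 ± 0.16 FPKM with hypoxanthine and 1.80 ± 0.06 FPKM in inosine (adjusted p = 0.0025). Smad2, the partner of Smad3, was at 4.02 ± 0.08 FPKM with hypoxanthine and 3.796 ± 0.209 FPKM in inosine (adjusted p = 0.52). Smad4, the common SMAD, was at 5.77 ± 0.53 FPKM with hypoxanthine and 4.87 ± 0.58 FPKM in inosine (adjusted p = 0.15). Whether these pairs differed in their change was not tested.

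Among 20 SMAD repressors, ubiquitin ligases and related regulators other than Skil, 5 rose and 3 fell against inosine, with a median log2 difference of 0.12. Tgif1, a homeodomain repressor that binds SMAD2 and SMAD3, was at 15.9 ± 1.1 FPKM with hypoxanthine and 7.56 ± 1.33 FPKM in inosine (adjusted p = 0.00049). Its relative Tgif2, named after its values were seen, was at 6.68 ± 0.77 FPKM with hypoxanthine and 3.91 ± 0.76 FPKM in inosine (adjusted p = 0.0056). Usp11, a deubiquitinase known to act on TGFBR1, was at 6.04 ± 0.33 FPKM with hypoxanthine and 3.07 ± 0.37 FPKM in inosine (adjusted p = 0.0029). Strap, which works with SMAD7 against the type I receptor, was at 52.6 ± 0.7 FPKM with hypoxanthine and 66.0 ± 4.0 FPKM in inosine (adjusted p = 0.0078). Fkbp1a, the FK506-binding protein that sits on unstimulated type I receptors, was at 149.6 ± 13.0 FPKM with hypoxanthine and 189 ± 0.6 FPKM in inosine (adjusted p = 0.035). The call of Fkbp1a was lost in 9 alternatives, at up to 0.13, among them each library left out with hypoxanthine or in inosine and replicate 3 in glucose left out.

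Of 4 measured extracellular antagonists, 1 rose and 1 fell against inosine. Twsg1, which binds BMPs outside the cell, was at 13.8 ± 0.9 FPKM with hypoxanthine and 6.41 ± 0.40 FPKM in inosine (adjusted p = 0.00065). Fstl3, a follistatin-like activin antagonist, averaged 0.029 ± 0.050 FPKM with hypoxanthine and 0.137 ± 0.043 FPKM in inosine (adjusted p = 0.035), a call lost in 7 alternatives at up to 0.13, among them replicates 2 and 3 with hypoxanthine, replicates 1 and 3 in inosine or replicate 3 in glucose left out. Nbl1, another BMP antagonist, was at 0.413 ± 0.022 FPKM with hypoxanthine and 0.400 ± 0.119 FPKM in inosine (adjusted p = 0.93).

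Genes often induced or repressed by SMADs moved both ways, with 2 of 15 measured higher and 3 lower against inosine. Their median log2 difference was -0.015. The role lists share some genes. Pmepa1, named after its values were seen, is counted as higher both here and among the SMAD repressors and related regulators. Its adjusted p was 0.025 (limma), a call lost in 4 alternatives. Id2, an inhibitor of DNA binding that BMP signalling induces and that effector CD8+ T cells use, was at 79.4 ± 1.2 FPKM with hypoxanthine and 157 ± 2.6 FPKM in inosine (adjusted p = 2.0e-05). Id3, its relative, was named after its values were seen and was at 19.7 ± 0.7 FPKM with hypoxanthine and 9.71 ± 1.37 FPKM in inosine (adjusted p = 0.00028). Id2 and Id3 changed in opposite directions. Cdkn1a, the cell cycle inhibitor p21, was at 59.9 ± 2.2 FPKM with hypoxanthine and 144 ± 24.4 FPKM in inosine (adjusted p = 0.00027). The AP-1 gene Junb was at 146.5 ± 19.9 FPKM with hypoxanthine and 121 ± 43.3 FPKM in inosine (adjusted p = 0.44).

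Of 12 genes of the kinase branches that do not use SMADs, 2 rose and 1 fell against inosine, with a median log2 difference of 0.086. Rhoa, a small GTPase of the cytoskeleton, was at 119 ± 4.6 FPKM with hypoxanthine and 99.8 ± 2.5 FPKM in inosine (adjusted p = 0.021, and up to 0.082 without replicate 1 or 3 with hypoxanthine or replicate 3 in inosine). Limk1, a kinase that acts on actin dynamics, was at 8.56 ± 0.99 FPKM with hypoxanthine and 5.51 ± 1.39 FPKM in inosine (adjusted p = 0.026, and up to 0.097 when a library of these 3 was left out or only these media were fitted). Map2k3, a kinase upstream of p38, was at 32.5 ± 3.8 FPKM with hypoxanthine and 39.6 ± 5.9 FPKM in inosine (adjusted p = 0.16).

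Against glucose, in a comparison that shares the libraries with hypoxanthine, the calls were in part other ones. Rhoa was at 119 ± 4.6 FPKM with hypoxanthine and 113 ± 4.7 FPKM in glucose (adjusted p = 0.46), Fstl3 had an adjusted p of 0.099 and Amhr2 of 0.062. Map2k3, which did not pass against inosine, was at 32.5 ± 3.8 FPKM with hypoxanthine and 43.6 ± 2.1 FPKM in glucose (adjusted p = 0.040), a call lost in 7 alternatives at up to 0.12, among them replicates 2 and 3 with hypoxanthine, replicate 3 in inosine or any glucose library left out. Id2 was at 79.4 ± 1.2 FPKM with hypoxanthine and 158 ± 3.9 FPKM in glucose (adjusted p = 2.2e-05), and Id3 at 19.7 ± 0.7 FPKM with hypoxanthine and 11.2 ± 0.7 FPKM in glucose (adjusted p = 0.00087). Tgif1 was at 15.9 ± 1.1 FPKM with hypoxanthine and 8.53 ± 0.34 FPKM in glucose (adjusted p = 0.0013). Twsg1 was at 13.8 ± 0.9 FPKM with hypoxanthine and 7.05 ± 1.33 FPKM in glucose (adjusted p = 0.0012). Of the 88 genes, these 4 and Cdkn1a, Usp11, Acvr2b, Smad5, Nrros, Bmp1, Strap and Wwp1, the last named after its values were seen, had an adjusted p under 0.05 against inosine and against glucose in every alternative tried that kept the gene (Acvr2b and Bmp1 are under the filter of 1 FPKM).

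**Figure D4:**
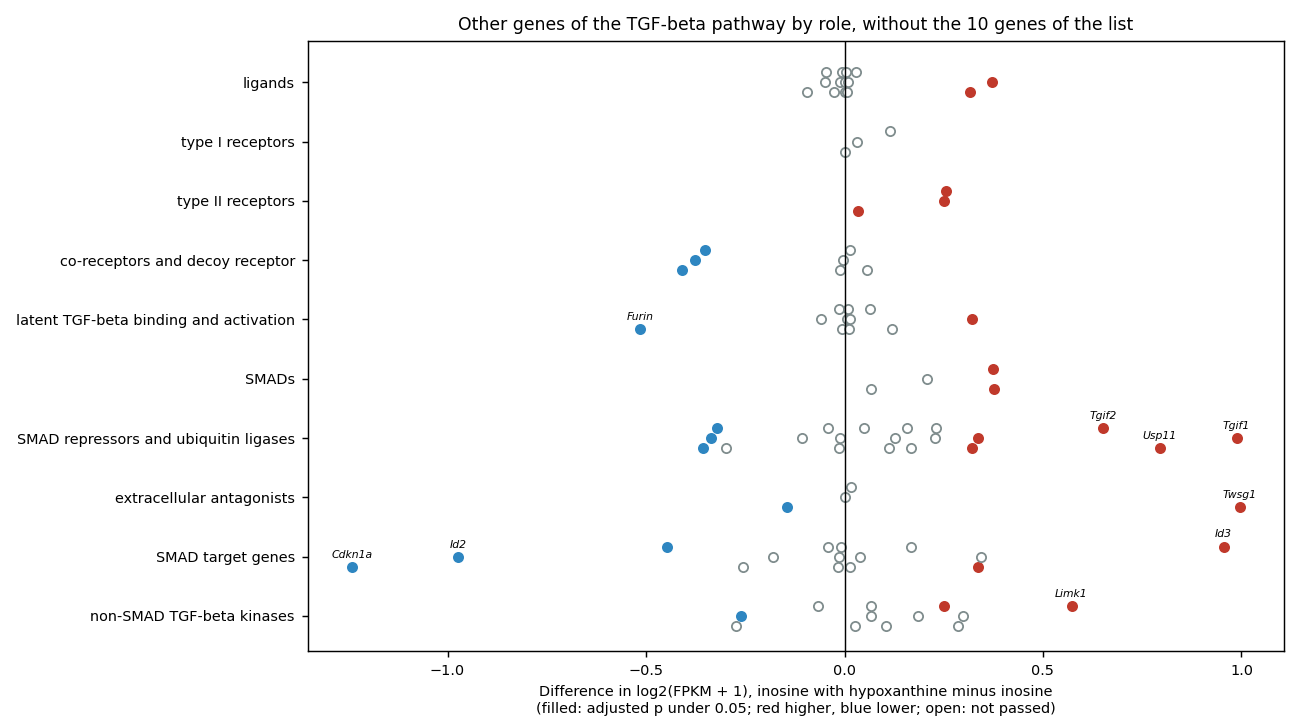
Differences in log2(FPKM + 1), inosine with hypoxanthine minus inosine (horizontal axis), for the measured pathway genes other than the 10, by role (vertical axis), with filled points for genes that passed an adjusted p under 0.05 (red higher, blue lower). All 3 type II receptors are filled on the higher side. Eng, Lrrc32 and Nrros, of the co-receptor and decoy receptor list, are filled on the lower side, and Cdkn1a lies farthest left at -1.24.

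Genes whose pattern over the 9 libraries was most like that of Acvrl1 were ranked by Pearson's r on log2(FPKM + 1) among 9545 named genes averaging 1 FPKM or more. The 5 closest were Tnfrsf8 (r = 0.998), which encodes CD30, Osgin1 (0.997), Ccdc115 (0.996), Adora2b (0.995), the adenosine A2B receptor, and Apobr (0.995). Tnfrsf8 was at 0.518 ± 0.041 FPKM with hypoxanthine, 7.12 ± 0.90 FPKM in inosine and 7.78 ± 0.23 FPKM in glucose, levels close to those of Acvrl1. Ccdc115 was at 15.3 ± 0.1 FPKM with hypoxanthine, 21.9 ± 0.6 FPKM in inosine and 22.4 ± 0.5 FPKM in glucose, a far smaller change. The 9 points fall into the 3 libraries with hypoxanthine and the 6 others, so that r mostly follows this split, and 419 of the 9545 genes had r over 0.95. Within the list, r with Acvrl1 was 0.86 for Tgfbr2, 0.81 for Smad3, 0.06 for Tgfb1, -0.32 for Acvr1, -0.63 for Smad7, -0.76 for Tgfbr1 and -0.93 for Skil. Bmpr2 and Tgfbr3 averaged under 1 FPKM, so no r was computed for them.

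Some annotated genes overlap the spans of members: Upp2 at Acvr1, Gm32435 at Tgfbr1, Gm31292 at Tgfbr2, Gm51710 at Smad3 and Gm41776 at Smad7. Without a stated strand, reads of overlapping genes cannot be told apart where their exons meet, and these 5 genes reached at most 0.166 FPKM in any library.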

How the data were processed

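RNA-seq of 9 libraries was analysed from 3 deposited tables, 1 for each pair of media. The submitters' processing notes name mm10 and the tools DESeq2 1.38.3, Subread 2.0.1, HISAT2 and featureCounts, with no roles. FPKM per gene and library were computed and deposited by the authors. Per the file headers, the deposited tables also hold group mean read counts, a signal scaled by size factors, log2 fold changes and p-values by the authors.

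The test was limma 3.58.1 (R 4.3.3, trend and robust) applied once to log2(FPKM + 1) of 20618 genes in the 9 libraries, with Benjamini-Hochberg adjustment over all genes, a threshold of 0.05 and no filter. It was also run on simulated data with independent normal noise, which leaves out deviations that libraries share, and no result here rests on that run. Whole reads were solved from the deposited group means for 97.1% of genes and used for depth, for voom and for the read numbers given for single genes. Of the whole-number solutions the one nearest to the ratios of the FPKM was taken, so reads and FPKM are not independent.

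The 10 genes, the pathway lists and the tests were chosen with earlier results of these data known. Besides the 10 genes and 5 nearest patterns, each pathway list names its genes with the 2 smallest adjusted p-values for hypoxanthine against inosine and the 2 highest mean FPKM; other genes are marked as named after their values were seen. Sequences are from RefSeq. Alternatives were another pseudocount (0.1), a filter of at least 1 FPKM, other scaling, a replicate block, simpler or smaller fits, each library left out and, added after seeing the data, voom and leaving out 2 libraries of high mitochondrial share.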

Additional observations from a re-analysis of the deposited data

How the results depend on the processing

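For inosine against glucose, 2 genes passed. The count was 0 with a mean of at least 1 FPKM, 0 with neither trend nor robust settings, 0 with only these media in the fit and 0 with voom on recovered reads. It was 1 without the 2 libraries of high mitochondrial share and 1 to 7 with single libraries left out. None of the 10 genes passed under any alternative tried. After removal of the media means, same-numbered libraries of different media correlated at -0.27 to 0.64, and differently numbered ones at -0.55 to 0.39. These ranges overlap, so whether replicate numbers pair the libraries cannot be told from them. The replicate block gave 1 gene for inosine against glucose, 4251 for hypoxanthine against glucose and 4396 for hypoxanthine against inosine. Single libraries left out gave 2757 to 4487 genes for hypoxanthine against inosine, 2677 to 4879 against glucose, and 18 to 29 of the 88 pathway genes against inosine. The cause was not tested.

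Of 168 recomputed inosine minus glucose differences of the 10 genes, 18 changed sign, with none past the threshold. Without the 2 libraries of high mitochondrial share they were 0.089 for Acvrl1, 0.029 for Tgfbr2, 0.010 for Bmpr2, 0.036 for Tgfbr3, 0.062 for Smad7 and -0.013 for Skil. With single libraries left out they ran from -0.20 to 0.089 for Acvrl1, -0.14 to 0.028 for Tgfbr1, -0.27 to 0.029 for Tgfbr2, -0.052 to 0.010 for Bmpr2, -0.042 to 0.036 for Tgfbr3, -0.15 to 0.062 for Smad7 and -0.079 to 0.068 for Skil. The log2 differences of low genes against inosine grew with less added to FPKM: with a pseudocount of 0.1 they were -4.16 for Acvrl1, 0.68 for Bmpr2 and 0.96 for Tgfbr3, and with voom on reads -4.43, 0.89 and 1.14. Depth limits the precision of the low genes, such as Acvrl1 with hypoxanthine at 63 to 85 reads.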
